A study of Mus musculus with 12 samples.

Results

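The comparison is of the *Fabp3* genotype over both surgeries: 6 F3-KO hearts against 6 WT hearts, with the surgery as an additive term and no interaction, so that each gene has 1 genotype effect common to sham and TAC. Its members are all 12 of the 12 hearts of the series, taken by their labelled genotype, with 3 hearts in each of the 4 groups. WT and F3-KO hearts came from C57BL/6 mice that were 8 weeks old at surgery. F3-KO mice lack *Fabp3* in every tissue and were made with CRISPR-Cas9, and neither the number of founder lines nor the substrain of C57BL/6 is stated in the labels. In TAC (transverse aortic constriction) the aortic arch was tied against a needle that was then withdrawn, and sham mice had the operation without the constriction. Hearts were collected 1 week later, and total RNA was sequenced. The labels give each heart a replicate number within its group.

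FABP3 is a small cytosolic protein of cardiac and skeletal muscle that binds long-chain fatty acids and carries them between membranes, mitochondria and nucleus. A comparison of a knockout line with wild-type mice holds 2 kinds of difference: that of the targeted gene, and any other difference in DNA between the lines, such as variants that separate C57BL/6J from C57BL/6N. C57BL/6J carries a deletion within *Nnt*, the gene of the nicotinamide nucleotide transhydrogenase of the inner mitochondrial membrane, which makes NADPH; C57BL/6N has the intact gene. Gene copy number also differs between mouse lines in families of near-identical copies. The study's methods say that male C57BL/6 mice were bought from a supplier, without saying which groups they formed. Its text calls WT mice littermates of F3-KO mice in some of its other measurements. The labels do not say whether the sequenced hearts came from littermates or from bought mice. Any difference in DNA that separates the same 6 hearts from the same 6 cannot be told apart from the loss of *Fabp3*.

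Libraries held 10424334 to 14372011 estimated counts, with a median of 11198589 in WT and 12182428 in F3-KO hearts. Cardiomyocyte markers summed to 28849 to 54169 CPM, counts scaled to the library's total, in every heart, as for a heart sample. Markers of a liver cell, the hepatocyte (*Alb*, *Apoa1*, *Ttr*, *Serpina1a*), summed to 72.2 CPM in F3-KO TAC replicate 2 and to 112 CPM in F3-KO TAC replicate 3, and to at most 0.885 CPM in the other 10 hearts. The same pair of hearts stood apart in lung epithelium markers (*Sftpc*, *Sftpb*, *Scgb1a1*), which summed to 0.0696 and 0.557 CPM there and to 25 to 37.8 CPM in the other 10. The calls over all genes and the lists whose values moved are therefore also given without these 2 hearts. Where a transcript is lower, fewer cells of a type and less RNA per cell cannot be told apart in whole-heart RNA.

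In F3-KO hearts *Fabp3* itself fell, as did *Rab4a*, *Ttc41*, *Nnt* and *Wdfy1*, while the *Plac9* copies, *Cpxm2* and *Ifi208* rose. Of 14094 genes tested, 55 (0.390%) passed an adjusted p under 0.05 in edgeR's quasi-likelihood test, 30 of them (0.213%) higher and 25 (0.177%) lower in F3-KO. At an unadjusted p under 0.05 there were 1426 genes (10.1%). For 38 of the 55, 20 higher and 18 lower, all 6 hearts of one genotype lay above all 6 of the other, and 90 of all genes tested (0.639%) did so. Of the 55 genes 40 changed by at least 1 on the log2 scale. Without the pair of hearts with hepatocyte transcripts 49 genes passed, 32 of them among the 55, and all 55 had the same direction.

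**Figure D1:**
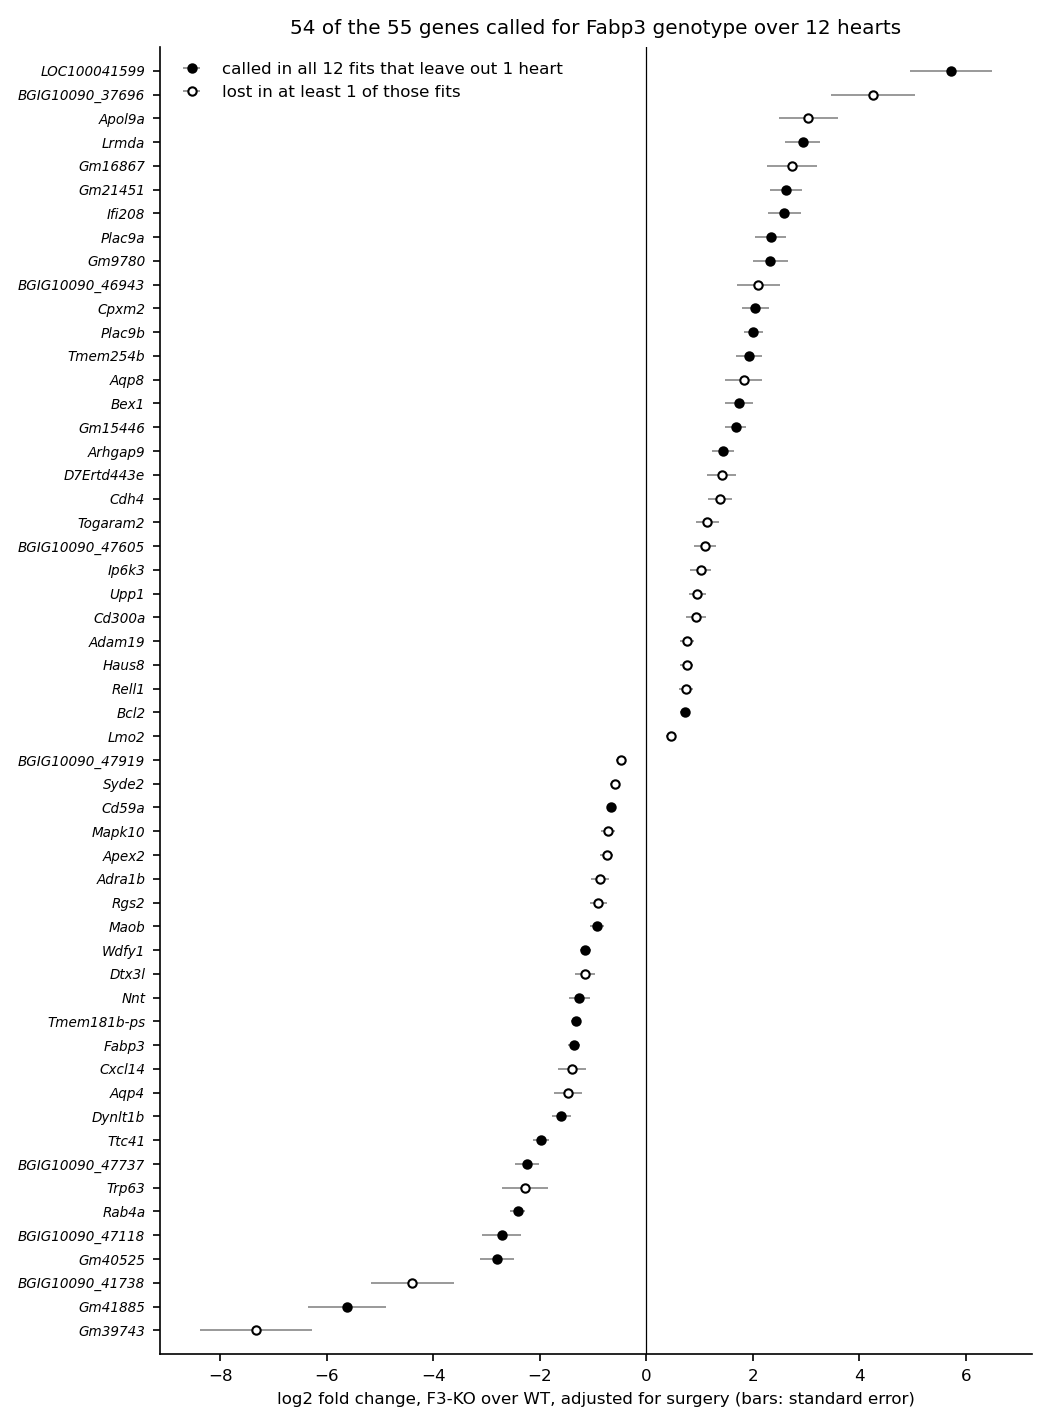
Log2 fold change of F3-KO over WT, adjusted for surgery, with its standard error, for 54 of the 55 genes that passed the test over 12 hearts (x axis; 1 gene per line). The 26 filled points stayed past the threshold whichever 1 of the 12 hearts was left out, and the 29 genes above 0 range up to *LOC100041599* at 5.73.

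*Fabp3* was the first check of the labels. Its level in WT hearts was 2117 CPM at the lowest, 2868 at the median and 3064 at the highest, and in F3-KO hearts 1002, 1053 and 1143 CPM. All 6 F3-KO hearts lay below all 6 WT hearts, with a spread among F3-KO hearts of 52.1 CPM (SD, n = 6) around a mean of 1059. The fold change was -1.35 on the log2 scale (SE 0.112, adjusted p = 5.82e-05, edgeR), with -1.21 in sham and -1.49 in TAC hearts. *Fabp3* reads were thus counted in every F3-KO heart. The gene-level counts do not say from which part of the gene these reads came.

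*Fabp3* has a near-identical copy in the mouse genome. In GENCODE M21 the processed pseudogene *Fabp3-ps1* matches 399 of the 402 coding bases of *Fabp3* (99.25%), and 50.1% of the 31-base words of *Fabp3* transcripts also occur in another gene's transcripts. *Fabp3-ps1* is not analysed here, and its part in the *Fabp3* counts was not tested. The longest run that the coding sequence and the pseudogene share base for base is 256 bases long, from coding base 41 to 296, and is shown because a read from within it carries no letter that tells them apart:

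Fabp3 and Fabp3-ps1, shared run: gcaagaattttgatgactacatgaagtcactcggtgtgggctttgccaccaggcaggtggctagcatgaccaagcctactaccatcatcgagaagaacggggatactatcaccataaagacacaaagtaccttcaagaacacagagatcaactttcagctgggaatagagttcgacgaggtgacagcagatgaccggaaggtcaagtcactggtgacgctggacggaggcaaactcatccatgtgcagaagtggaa

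The genes beside *Fabp3* did not pass edgeR's test. Among the 25 RefSeq genes on each side, 14 were tested and 0 were called by edgeR or limma-trend, with 4 at an unadjusted p under 0.05 in edgeR beside 10.1% of all genes, and 1, *Nkain1*, was called by DESeq2 (adjusted p = 0.0423). *Nkain1*, 4 genes away, was at 13.5 CPM in WT and 21.2 CPM in F3-KO (log2 0.63, SE 0.17, adjusted p = 0.208 in edgeR), and the next gene, *Zcchc17*, which overlaps 6.43% of the 31-base words of *Fabp3*, was at 29.5 and 29.6 CPM (log2 0.01). Their median log2 fold change was 0.03, beside 0.01 over all genes tested, and for 0 of the 14 were the 2 genotypes apart in all hearts.

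**Figure D2:**
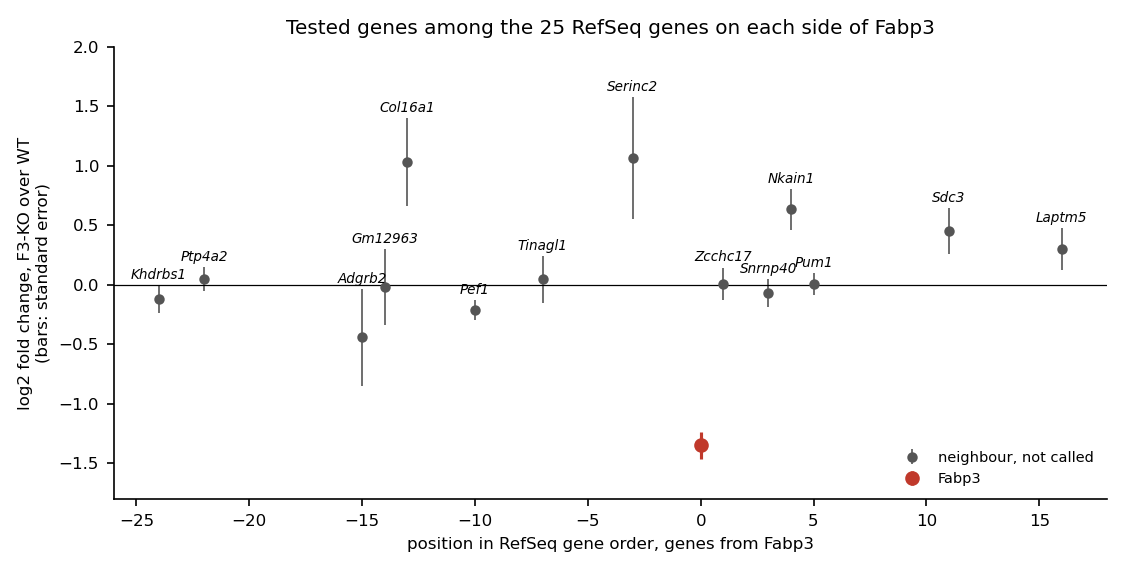
Log2 fold change of F3-KO over WT with its standard error (y axis) for *Fabp3* and the 14 tested genes among the 25 RefSeq genes on each side, by their place in the gene order (x axis). *Fabp3* lies at -1.35 and the neighbours between -0.44 and 1.07.

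Besides *Fabp3*, the lower genes with the smallest adjusted p were *Rab4a*, *Tmem181b-ps*, *Ttc41* and *Wdfy1*. *Rab4a*, a small GTPase that returns receptors from early endosomes to the cell surface, was at 15.1, 15.6 and 18.2 CPM (lowest, median, highest) in WT hearts and at 2.35, 2.84 and 4.21 CPM in F3-KO hearts. The genotypes did not overlap, and the log2 fold change was -2.41 (SE 0.144, adjusted p = 5.1e-06). *Ttc41*, which codes for a tetratricopeptide repeat protein, was at 203, 344 and 408 CPM in WT and at 56.2, 78.4 and 107 CPM in F3-KO hearts, again without overlap (log2 -1.98, SE 0.152, adjusted p = 3.64e-05). Both genes share under 0.5% of their 31-base words with other genes, 0.114% for *Rab4a* and 0.443% for *Ttc41*.

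Among genes known to differ between C57BL/6 substrains, a list of 12 of which 6 were tested, 2 fell and 4 did not pass, beside 0.177% of all genes called lower. *Nnt* was at 1040, 1500 and 1861 CPM in WT and at 396, 699 and 823 CPM in F3-KO hearts, with a mean of 1502 ± 295 against 635 ± 182 CPM (SD, n = 6 each). All F3-KO hearts lay below all WT hearts (log2 -1.25, SE 0.195, adjusted p = 0.0120), in sham (-1.14) and in TAC hearts (-1.37). GENCODE M21 has a second entry named *Nnt* that holds 47.1% of the 31-base words of the first, and whether its reads are in these counts was not tested. *Wdfy1*, which codes for a protein of early endosomes with a lipid-binding FYVE domain, was at 33.2, 36.5 and 46.4 CPM in WT and at 15.3, 15.9 and 21.4 CPM in F3-KO hearts (log2 -1.14, SE 0.0947, adjusted p = 5.82e-05). Its effect was nearly equal in sham (-1.15) and TAC hearts (-1.13). The others were *Entpd4* at 0.64 (adjusted p = 0.455), *Adcy5* at -0.20, *Cyfip2* at 0.17 and *Ide* at 0.04 on the log2 scale. *Crb1*, *Nlrp12*, *Gabra2*, *Pdzk1* and *Zp2* were below the filter. The list's median was -0.08.

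**Figure D3:**
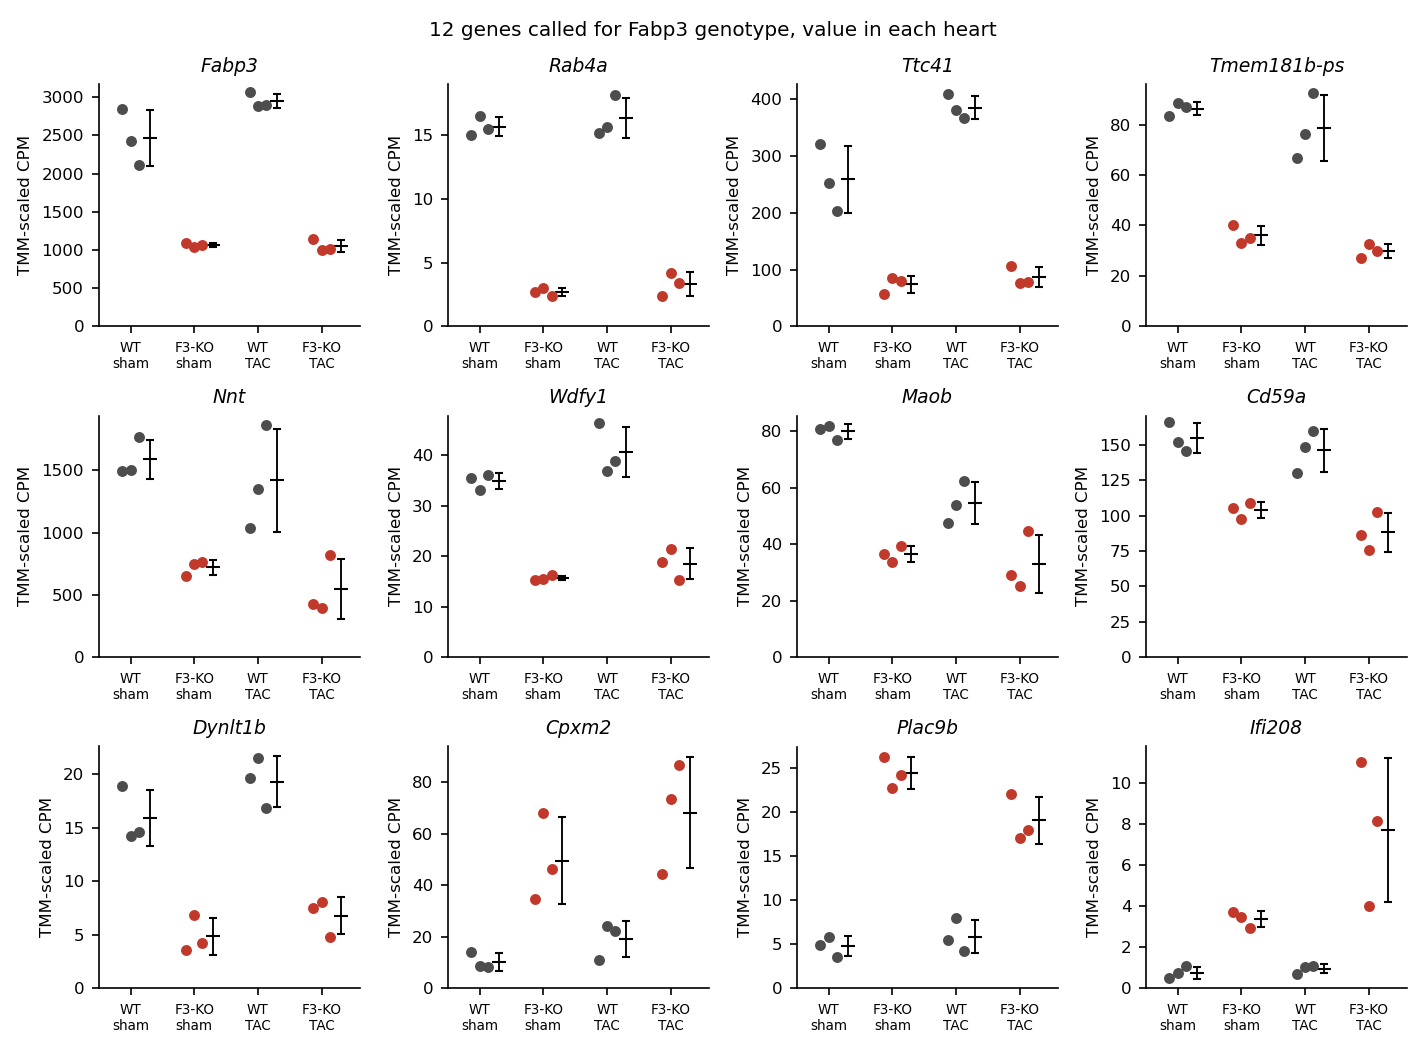
TMM-scaled CPM (y axis, from 0) of 12 genes in each heart, by group (x axis; grey WT, red F3-KO; 3 points per group, with the mean and SD beside them). In each of the 12 genes the genotypes do not overlap.

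Genes that occur in near-identical copies made up the next group, with a list of 12 copies of which 7 were tested, 3 were below the filter and 2 were not listed. Of the 7, 3 rose and 1 fell, beside 0.390% of all genes called, in a list drawn up with earlier results known. *Plac9b* was at 3.6, 5.22 and 7.93 CPM in WT and at 17, 22.4 and 26.3 CPM in F3-KO hearts (log2 2.01, SE 0.184, adjusted p = 0.000151), and *Plac9a* at 1.06, 2.45 and 3.92 against 7.24, 12.3 and 17 CPM (log2 2.34, SE 0.288, adjusted p = 0.00195). Both code for small secreted proteins and were higher in every F3-KO heart than in any WT heart. *Gm9780* rose by 2.33 and *Tmem254b*, of a family of transmembrane proteins, by 1.93 on the log2 scale. These 4 genes lie within 14 neighbouring RefSeq genes. The other tested genes within this stretch, *Gm2260* and *Gm2274*, were at -1.32 and -0.19 (adjusted p = 0.686 and 0.933). Of the genes just before it, *Ppif* was at 0.19, *Zcchc24* at 0.04 and *Anxa11* at -0.27 (adjusted p = 0.676, 0.915 and 0.372).

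Most 31-base words of these copies are not unique to 1 gene. Of the words of their transcripts, 96.6% in *Plac9b*, 99.7% in *Plac9a*, 99.4% in *Gm9780* and 100% in *Tmem254b* also occur in another gene's transcripts. The value of each single copy is thus uncertain. Single pairs can share less, with 70.5% of the words of *Plac9a* in *Plac9b* and 78.1% in *Gm9780*. Upstream sequences are also shared between copies. Within the 250 bases before the RefSeq starts (GRCm38.p6), 1 run of 172 bases was identical in *Plac9a* (chr14:25902972-25903143, minus strand) and *Plac9b* (chr14:26182352-26182523, minus strand), and 1 run of 234 bases in *Tmem254a* (chr14:25927673-25927906, minus strand) and *Tmem254b* (chr14:26207042-26207275, minus strand). The runs are shown, 5′ to 3′ with no base that differs, as the upstream sequence that copies share. *Tmem254a* was below the filter and has no fold change:

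Plac9a and Plac9b, shared run: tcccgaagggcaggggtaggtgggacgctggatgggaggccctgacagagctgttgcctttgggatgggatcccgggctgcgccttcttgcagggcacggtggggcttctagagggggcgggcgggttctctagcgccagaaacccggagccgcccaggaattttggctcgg

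Tmem254a and Tmem254b, shared run: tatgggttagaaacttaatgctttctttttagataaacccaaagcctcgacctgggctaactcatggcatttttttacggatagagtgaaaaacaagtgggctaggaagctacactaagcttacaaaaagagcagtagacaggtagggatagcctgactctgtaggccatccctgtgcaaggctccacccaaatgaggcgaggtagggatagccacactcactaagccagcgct

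Another neighbouring pair of higher genes was *Gm16867* and *Gm21451*, which lie next to each other between *Entpd4* and *Entpd4b*. *Gm16867* was at 0, 0.361 and 1.02 CPM in WT and at 2.35, 2.86 and 3.49 CPM in F3-KO hearts (log2 2.73, edgeR adjusted p = 0.0247). It passed in only 5 of the 12 fits that left out a heart and not with the replicate block. Of its 31-base words 98.9% also occur in another gene's transcripts. *Gm21451* was at 0.881, 1.15 and 2.29 CPM in WT and at 5.13, 8.83 and 11 CPM in F3-KO hearts (log2 2.62, SE 0.300, adjusted p = 0.00118), without overlap. It shares 84.4% of its 31-base words with *Loxl2*, a lysyl oxidase, which was at 25.6 and 46.5 CPM (log2 0.74, adjusted p = 0.529). *Entpd4* and *Entpd4b* code for a nucleotide-cleaving enzyme of the Golgi. *Entpd4b* was at 3.85 to 53.9 CPM in WT and at 36.1 to 128 CPM in F3-KO hearts, which overlapped through WT TAC replicate 1 (log2 2.14, adjusted p = 0.219 in edgeR, called by DESeq2). That heart also had the lowest *Entpd4* of the series, at 26.5 CPM beside 83.7 CPM or more in the other 11.

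Copies moved the other way at a further place. *Dynlt1b*, a light chain of the dynein motor, fell from 17.6 ± 2.91 to 5.84 ± 1.89 CPM (log2 -1.60, SE 0.177, adjusted p = 0.00108), and the adjoining pseudogene *Tmem181b-ps* from 82.4 ± 9.49 to 33.1 ± 4.53 CPM (log2 -1.32, SE 0.0952, adjusted p = 2.61e-05; SD, n = 6 each). In neither did the genotypes overlap. *Dynlt1b* shares 86.9% of its 31-base words with other genes, chiefly *Dynlt1c* and *Dynlt1a*. *Tmem181a*, the functional relative of the pseudogene, was at 19.2 to 25.6 CPM in WT and at 19.8 to 25.3 CPM in F3-KO hearts. The last neighbouring pair, *Lmo2* and *Cd59a*, lay 6 genes apart and went opposite ways. *Cd59a*, an anchored inhibitor of the complement attack complex, was at 130, 150 and 166 CPM in WT and at 75.5, 99.9 and 109 CPM in F3-KO hearts (log2 -0.65, SE 0.0931, adjusted p = 0.00557), and *Lmo2*, a transcriptional partner in blood and endothelial cells, rose from 33.6 ± 2.16 to 46.1 ± 5.49 CPM (log2 0.46, adjusted p = 0.0398) but passed in only 2 of the 12 fits that left out a heart and not with the replicate block. In *Cd59b*, the copy beside *Cd59a*, values were 2.43 and 1.32 CPM (adjusted p = 0.223).

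Over all called genes, 8 of the 42 found in GENCODE M21 (19.1%) shared at least 50% of their 31-base words with another gene, beside 480 of 13316 tested genes (3.6%). These 8 are not independent of each other. *Plac9a*, *Plac9b*, *Gm9780* and *Tmem254b* lie in the same stretch and *Gm16867* and *Gm21451* are neighbours. The others are *Dynlt1b* and the targeted gene *Fabp3*. By kind of name, 7 of 278 tested predicted genes with a Gm symbol (2.52%) and 7 of 494 with a BGIG identifier (1.42%) were called, and 40 of 13088 other genes (0.306%). Of the 42, 22 (52.4%) shared under 5%, beside 67.9% of all tested genes found there. The other 12 lay between, from *Nnt* (47.8%), *Bex1* (40.02%), *Ifi208* (34.6%) and *Apol9a* (20.2%) to *Dtx3l* (9.68%), *Adam19* (9.42%) and lower. What this sharing does to their counts was not tested.

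*Maob*, *Adra1b* and *Rgs2* fell as well. *Maob*, the monoamine oxidase of the outer mitochondrial membrane, was at 47.3, 69.6 and 81.8 CPM in WT and at 25.3, 35.2 and 44.6 CPM in F3-KO hearts, without overlap (log2 -0.93, SE 0.138, adjusted p = 0.00814). *Adra1b*, the alpha-1B adrenergic receptor, fell from 34.9 ± 8.30 to 19.5 ± 6.13 CPM (log2 -0.87, adjusted p = 0.0398), and *Rgs2*, which shortens signalling through the G proteins of such receptors, from 65.1 ± 25.8 to 36.2 ± 18.4 CPM (log2 -0.90, adjusted p = 0.0374). Hearts of the 2 genotypes overlapped in both. *Rgs2* was the only one of the 55 genes that was called for surgery too (adjusted p = 0.0234). *Adra1b* and *Rgs2* passed in 2 and 3 of the 12 fits that left out a heart, *Maob* in all 12.

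Other lower genes had various roles. *Mapk10*, a kinase of the JNK group, fell by 0.72, *Cxcl14*, a chemokine, by 1.39, *Aqp4*, a water channel, by 1.46 and *Trp63*, a transcription factor of the p53 family, by 2.28 on the log2 scale. *Dtx3l*, a ubiquitin ligase that pairs with PARP9, fell by 1.15, *Apex2*, a DNA repair nuclease, by 0.74 and *Syde2*, a GTPase-activating protein, by 0.59. The adjusted p of these 7 genes lay between 0.0195 and 0.049, and each was lost in at least 4 of the 12 fits that left out a heart. The 4 steepest falls were in genes without a known role. *Gm41885* was at 5.11, 27.1 and 62.7 CPM in WT and at 0, 0.430 and 2.06 CPM in F3-KO hearts (log2 -5.62, SE 0.726, adjusted p = 0.00271), and *Gm40525* at 77.2, 114 and 263 against 13.6, 18.3 and 30.3 CPM (log2 -2.80, SE 0.322, adjusted p = 0.00118). *Gm39743* had 0 counts in all 6 F3-KO hearts and a mean of 1.67 CPM in WT hearts, which made it at least 6.75-fold lower against a floor of 3 counts per library (adjusted p = 0.0394). *BGIG10090_41738* fell by 4.39 on the log2 scale (adjusted p = 0.0336). *Gm39743* and *BGIG10090_41738* each passed in 4 of the 12 fits that left out a heart.

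Of 22 tested members given here of a list of glycolysis and glucose uptake, 15 had lower and 7 higher values with a median of -0.07, and 13 and 9 with a median of -0.02 without the 2 hearts with hepatocyte transcripts. Unadjusted p-values under 0.05 numbered 3, beside 10.1% of all genes. *Pfkfb1*, which sets the level of an activator of glycolysis, was at 13.3, 14.8 and 31.6 CPM in WT and at 1.98, 5.92 and 14.6 CPM in F3-KO hearts (log2 -1.44, SE 0.30, adjusted p = 0.0836), with *Fbp2*, a muscle enzyme of the reverse path, at -1.09 (adjusted p = 0.241) and *Pfkfb2*, the cardiac relative, at 0.66 (adjusted p = 0.272). DESeq2 called *Pfkfb1* and *Fbp2*, limma-trend neither.

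In fatty acid metabolism 0 genes were called by edgeR in 6 lists, from which *Fabp3* itself was left out. Of their 77 tested members 9 had an unadjusted p under 0.05, beside 10.1% of all genes, and 0 were called by limma-trend and 1, *Slc27a1*, by DESeq2. The relatives of *Fabp3* in heart, *Fabp4* and *Fabp5*, were at 0.31 (SE 0.25, adjusted p = 0.700) and 0.29 (SE 0.30, adjusted p = 0.768) on the log2 scale. The fatty acid transporter *Slc27a1* was at 153, 240 and 262 CPM in WT and at 74.8, 153 and 209 CPM in F3-KO hearts (log2 -0.71, SE 0.20, adjusted p = 0.227). Of 21 genes of mitochondrial fatty acid oxidation 18 had lower values, with a median of -0.10 and *Cpt1a*, the entry step, at 0.35 (adjusted p = 0.431). These pooled values join opposite signs. All but *Cpt1a* (higher in both surgeries), *Acadl* and *Decr1* (lower in both) were higher in sham and lower in TAC hearts, as *Hadha* was (0.20 and -0.47). The difference between the surgeries passed edgeR's adjusted test for 0 genes. Without F3-KO TAC replicate 2, 11 of the 21 had lower values (median -0.01), as 11 had without replicates 2 and 3 (median -0.02). Of 18 genes of the TCA cycle 15 had lower values with all hearts (median -0.10). The number was 10 without F3-KO TAC replicate 2 (median -0.02) and 12 without replicates 2 and 3 (median -0.03). With all hearts and without replicate 2, 0 were called and 0 had an unadjusted p under 0.05 in edgeR. Here too the signs were opposite. All but *Sucla2* (higher in both surgeries), *Idh3g* and *Sdhc* (lower in both) were higher in sham and lower in TAC hearts, as *Suclg1* was (0.18 and -0.52).

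Genes driven by PPAR, the nuclear receptors that sense fatty acids, did not pass either. Of 16 tested targets 12 had lower values (median -0.11), 9 without F3-KO TAC replicate 2 (median -0.07) and 10 without replicates 2 and 3 (median -0.10). With all hearts 4 of the 16 had an unadjusted p under 0.05 in edgeR, 2 higher and 2 lower, beside 10.1% of all genes. Without F3-KO TAC replicate 2 there were 2, beside 8.35%. *Angptl4*, an inhibitor of lipoprotein lipase, was at 2, 6.17 and 43.0 CPM in WT and at 17.3, 25.7 and 50.5 CPM in F3-KO hearts (log2 1.57, SE 0.53, adjusted p = 0.316), *Pnpla2*, the triglyceride lipase of lipid droplets, was at -0.50 (adjusted p = 0.377) and *Plin5*, a droplet coat protein, at -0.41 (adjusted p = 0.477). Among 11 regulators 2 had an unadjusted p under 0.05 in edgeR, *Ppargc1a* (0.41, adjusted p = 0.391) and *Pparg* (0.45, adjusted p = 0.471). Of 13 genes of lipogenesis 10 had higher values, with a median of 0.09, which was 0.05 without F3-KO TAC replicate 2 (10 higher) and 0.09 without replicates 2 and 3 (8 higher), and with *Fads2* at 0.31 (adjusted p = 0.536).

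**Figure D4:**
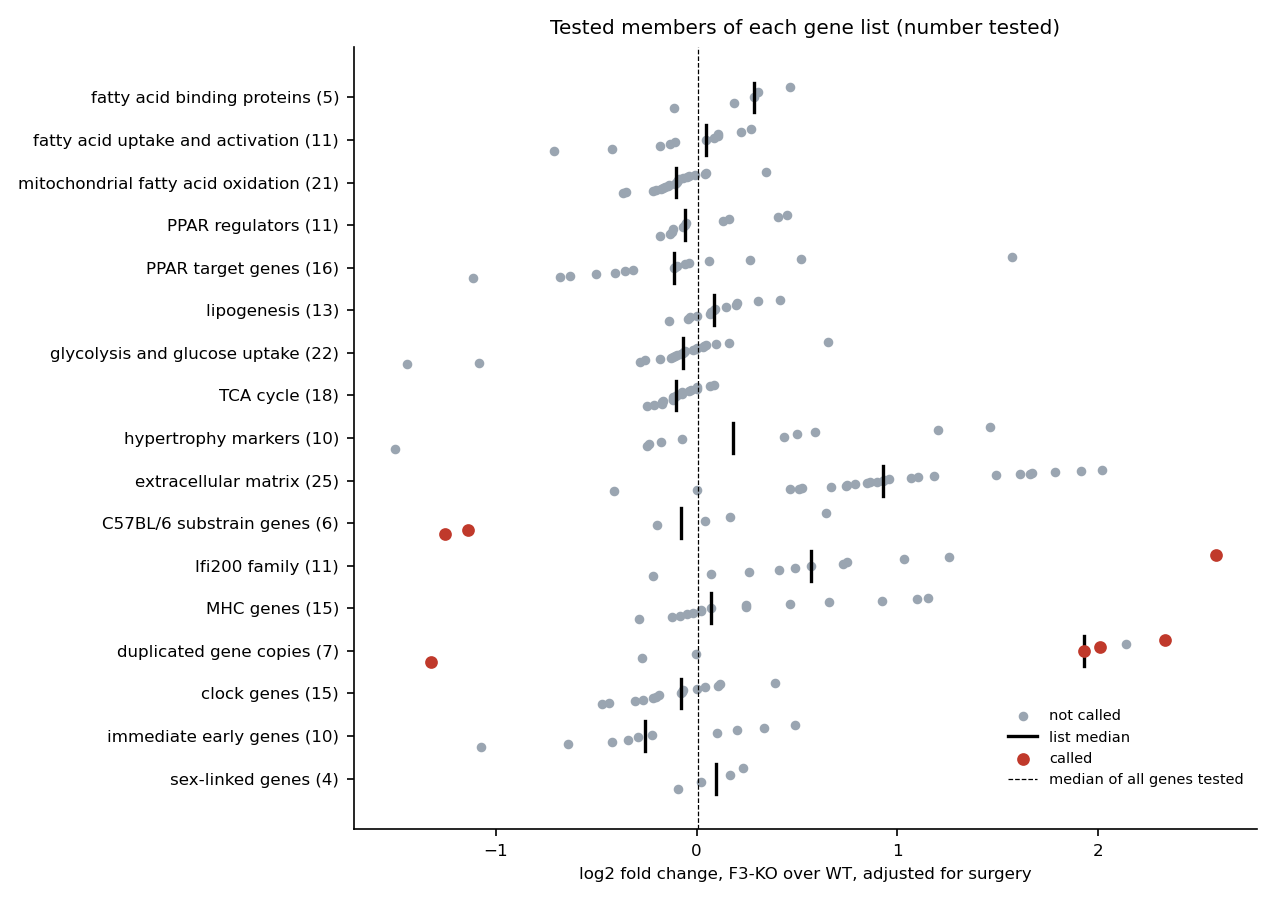
Log2 fold change of F3-KO over WT, adjusted for surgery (x axis), of each tested member of 17 gene lists (y axis; number tested in brackets), with the called members in red and the list median as a black bar. Among the members drawn, called ones are in 3 lists, and the extracellular matrix median lies at 0.93, to the right of the median of all genes at 0.01.

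The matrix genes lay on one side without passing. Of 25 tested genes of the extracellular matrix 24 had higher values in F3-KO hearts and 0 were called by edgeR, with 11 at an unadjusted p under 0.05, beside 10.1% of all genes, and a median of 0.93 beside 0.01 over all genes. DESeq2 called 1, *Thbs1*, and limma-trend 0. *Thbs1*, a matrix glycoprotein of injured tissue, was at 4.66, 10.3 and 14.9 CPM in WT and at 9.90, 13.4 and 97.4 CPM in F3-KO hearts (log2 1.66, SE 0.42, adjusted p = 0.174). The summed level of the list was 1450 to 2942 CPM in 9 hearts, 7064 CPM in WT TAC replicate 1, 9310 CPM in F3-KO TAC replicate 1 and 15469 CPM in F3-KO TAC replicate 2. Without the last of these the median was 0.54, and 5 genes had an unadjusted p under 0.05, beside 8.35% of all genes in that fit. Without F3-KO TAC replicates 2 and 3 it was 0.82, 16 genes had such a p, beside 10.8% of all genes, and *Thbs1* was called. Of 10 genes of hypertrophy 0 were called by edgeR, DESeq2 or limma-trend, and 2 had an unadjusted p under 0.05 in edgeR, beside 10.1% of all genes, with *Acta1*, skeletal actin, at 1.47 (adjusted p = 0.261), *Rcan1*, a calcineurin target, at 0.59 (adjusted p = 0.281) and *Nppb*, the brain natriuretic peptide, at 0.44 (adjusted p = 0.524).

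The Ifi200 and MHC lists held 1 call. *Ifi208*, of the Ifi200 family of nucleic acid sensors, was at 0.486, 0.895 and 1.10 CPM in WT and at 2.93, 3.88 and 11 CPM in F3-KO hearts, without overlap (log2 2.59, SE 0.312, adjusted p = 0.00165). With all hearts it was the 1 called of 11 tested members, 10 of which had higher values (median 0.57), with *Ifi213*, which shares 30.7% of the 31-base words of *Ifi208*, at 1.04 (adjusted p = 0.120) and *Ifi206* at 1.26 (adjusted p = 0.193). Without F3-KO TAC replicate 2, edgeR called *Ifi213* as well, and the list's median was 0.62. *Apol9a*, an apolipoprotein L that interferon induces, rose from 1.18 ± 1.01 to 9.01 ± 4.82 CPM (log2 3.04, SE 0.551, adjusted p = 0.0365) but passed in only 2 of the 12 fits that left out a heart. Of 15 tested MHC genes 0 were called by edgeR, 10 had higher and 5 lower values, and the median was 0.07. An unadjusted p under 0.05 was found for 5, beside 10.1% of all genes. The antigen-presenting chains *H2-Ab1* (1.10, adjusted p = 0.0951), *H2-Aa* (1.16, adjusted p = 0.104) and *H2-Eb1* (0.93, adjusted p = 0.254) had the lowest p-values. DESeq2 called *H2-Ab1* and *H2-Aa* and also *Ifi213* and *Ifi206*, limma-trend none of these 4. *Arhgap9*, a GTPase-activating protein of blood cells, rose from 4.75 ± 0.582 to 13 ± 4.12 CPM (log2 1.44, SE 0.205, adjusted p = 0.00557), and *Cd300a*, an inhibitory receptor of myeloid cells, by 0.94 (adjusted p = 0.049), which passed in 1 of the 12 fits that left out a heart. The 6 macrophage markers had a median of 0.30, with 0 called. Their summed level was 231 to 631 CPM in WT and 323 to 807 CPM in F3-KO hearts, and its part in these calls was not tested.

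Further genes rose. *Cpxm2*, a carboxypeptidase-like secreted protein, was at 8.10, 12.6 and 24.4 CPM in WT and at 34.5, 57.1 and 86.7 CPM in F3-KO hearts, without overlap (log2 2.04, SE 0.255, adjusted p = 0.00206). *Bcl2*, the inhibitor of apoptosis, rose from 11.9 ± 3.09 to 19.4 ± 3.46 CPM (log2 0.72, SE 0.0959, adjusted p = 0.00333), with overlap between WT TAC and F3-KO sham hearts. *Bex1* rose by 1.74 and *Lrmda*, a gene of pigment cell differentiation, by 2.94 on the log2 scale, both without overlap. *Lrmda* was at 0.0818, 0.257 and 0.367 CPM in WT hearts, near a floor of 3 counts per library. Its F3-KO values were 1.56, 1.97 and 2.72 CPM, so that the size of its fold is uncertain. The cadherin gene *Cdh4* rose by 1.38, *Aqp8*, a water channel, by 1.83, *Upp1*, which cleaves uridine, by 0.96, *Ip6k3*, an inositol phosphate kinase of muscle, by 1.02 and *Adam19*, a membrane metalloprotease, by 0.77. With a heart left out, *Upp1* passed in 11 of the 12 fits, *Cdh4* in 9, *Adam19* in 3 and *Aqp8* and *Ip6k3* in 2 each, and the last 3 did not pass with the replicate block. *LOC100041599*, without a known role, was at 0 in 5 WT hearts and at 0.409 CPM in the sixth, and at 1.75, 3.90 and 7.67 CPM in F3-KO hearts (log2 5.73, SE 0.769, adjusted p = 0.00345). *Gm15446* rose by 1.68, *Togaram2* by 1.15, *Haus8*, a subunit of the augmin complex of the spindle, by 0.76 and *Rell1* by 0.75. Of these *Gm15446* passed in all 12 such fits, *Haus8* in 8, *Rell1* in 3 and *Togaram2* in 2. Of the 7 called genes with a BGIG identifier 4 fell and 3 rose. *BGIG10090_37696* had at most 2 counts in any WT heart, and its F3-KO mean was at least 5.6-fold higher against a floor of 3 counts per library. Its F3-KO hearts ranged from 0.228 to 3.85 CPM. It passed in only 3 of the 12 fits that left out a heart, and not with limma-trend or the replicate block. *BGIG10090_41738* fell from 8.26 ± 4.19 to 0.461 ± 0.905 CPM (SD, n = 6 each).

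The same effect was then set out by surgery. All 55 genes had the same direction in sham and in TAC hearts, which is a description only, since the hearts of both surgeries chose them. With 3 hearts against 3, 15 genes passed in sham and 11 in TAC hearts. The difference of the genotype effect between the surgeries passed for 0 of 14094 genes in edgeR, with 632 at an unadjusted p under 0.05, and for 6 in DESeq2. Among the 55 only *D7Ertd443e* had an unadjusted p under 0.05 for that difference (1.99 in sham, 0.89 in TAC, edgeR's quasi-likelihood adjusted p = 0.954 over all genes). *Plac9a* (2.34 and 2.33), *Wdfy1* and *Apex2* (-0.75 and -0.74) had nearly equal values in both.

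**Figure D5:**
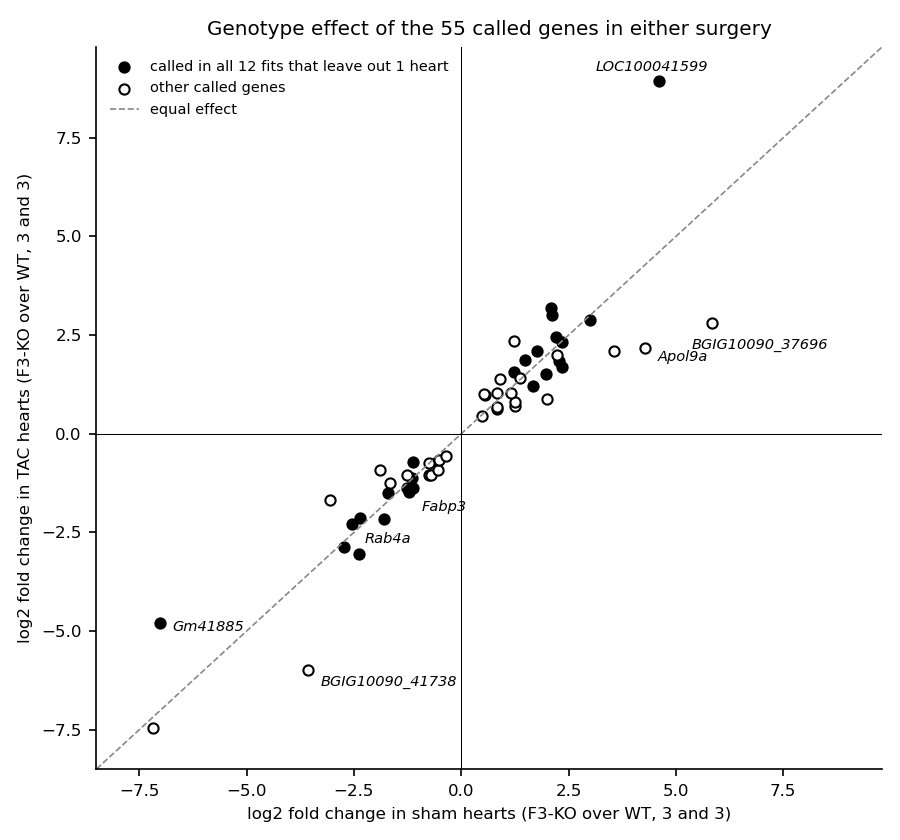
Log2 fold change of F3-KO over WT in the 6 sham hearts (x axis) and in the 6 TAC hearts (y axis) for the 55 called genes. All points lie in the lower left or upper right of the 2 zero lines, and *LOC100041599* (4.59 and 8.93), *Gm41885* (-7.02 and -4.79) and *Cxcl14* (-1.90 and -0.91) are among those off the dashed line of equal effect.

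A smaller set did not turn on any single heart. Of the 55 genes 27 stayed past the threshold in all 12 fits that left out a heart, and all 27 also without the pair of hearts with hepatocyte transcripts. The 13 lower ones were *Fabp3*, *Rab4a*, *Ttc41*, *Tmem181b-ps*, *Dynlt1b*, *Nnt*, *Wdfy1*, *Maob*, *Cd59a*, *Gm41885*, *Gm40525*, *BGIG10090_47118* and *BGIG10090_47737*, and the 14 higher ones included *Bcl2*, *Cpxm2*, *Arhgap9*, *Bex1*, *Lrmda*, *Ifi208*, *Plac9a*, *Plac9b*, *Gm9780*, *Tmem254b*, *Gm21451*, *Gm15446* and *LOC100041599*. Of the lists of clock genes (15 tested, median -0.08), immediate early genes (10 tested, median -0.26) and sex-linked genes (4 tested, median 0.10) 0 members were called by edgeR, DESeq2 or limma-trend, with 0, 3 and 0 at an unadjusted p under 0.05 in edgeR, beside 10.1% of all genes. Without F3-KO TAC replicates 2 and 3 their medians were -0.15, -0.10 and 0.01. In the immediate early list the 3 were *Nr4a1* (-1.08, adjusted p = 0.272), *Dusp1* (-0.34, adjusted p = 0.316) and *Btg2* (-0.42, adjusted p = 0.319).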

How the data were processed

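RNA of 12 mouse hearts was measured by sequencing. According to the methods, RNA was extracted with Trizol, reads were cleaned with SOAPnuke and mapped with HISAT2 and STAR. The submitters' processing notes name HISAT2 2.0.4, STAR 2.3.0 and DESeq2, and builds mm8 and mm9 with no role. The counting tool, strand setting and annotation are not given in the sources used here. The authors deposited estimated counts per gene, not normalized and not always whole, for 19308 genes. Tests had been planned for whole counts, so values were rounded.

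Genes were filtered with filterByExpr over the 4 groups (minimum count 10) and scaled with TMM factors, and edgeR's quasi-likelihood model with surgery and genotype was fitted to all 12 libraries (9 residual degrees of freedom). A gene was called at a Benjamini-Hochberg adjusted p under 0.05 over all 14094 genes. Fold changes are F3-KO over WT. R 4.3.3, edgeR 4.0.16, limma 3.58.1 and DESeq2 1.42.0 were used, and the tests were run on simulated data first. The separate tables of 11 hearts held the same values as the joint table, and that of WT sham replicate 2 breaks off early. P-values of the main fit set the genotype effect against the spread between these hearts that is left after the surgery term. A count of 3 was the floor for folds, which covers counting error only.

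The lists and named genes were chosen with earlier results of these data known. Named were *Fabp3*, called genes whose genotypes do not overlap, the 10 highest and 10 lowest called fold changes at a mean of at least 1 CPM, called members of lists, and the 3 members of each list with the lowest p. Other called genes and *Entpd4*, *Entpd4b*, *Cd59b*, *Loxl2* and the neighbours of called copies were named after their values were seen. One called gene is not reported here: it is in the counts over all genes, but was taken out of its list, the plot of called genes and the hearts that stood apart. RefSeq (GRCm38.p6) gave gene order and upstream sequence, and GENCODE M21 the shares of 31-base words. Positions are not given for the counts, whose build is not settled. Alternatives were DESeq2, limma-trend, other scaling, filters, thresholds and models, the replicate number as a block, each heart left out, and, chosen after seeing the data, F3-KO TAC replicates 2 and 3 left out together.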

Additional observations from a re-analysis of the deposited data

Results flagged for a closer look

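In 141 groups of 6 hearts (54 of the 55 called genes and 17 sums of cell type markers, in each genotype, without *Gm39743* in F3-KO hearts, which was at 0 in all 6), 8 had a heart whose gap to the nearest other exceeded 0.625 of the group's range, the limit of Dixon's test. Chance gives about 1 in 20. No explanation was tested.

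*BGIG10090_41738* in F3-KO sham replicate 3 was at 2.29 CPM, above the next F3-KO heart at 0.304 CPM (gap 0.868 of the range). *Ip6k3* in F3-KO sham replicate 1 was at 14.9 CPM, below the next F3-KO heart at 24.4 CPM (gap 0.635 of the range). *Cdh4* in WT TAC replicate 3 was at 6.7 CPM, above the next WT heart at 4.23 CPM (gap 0.651 of the range). *Tmem254b* in WT TAC replicate 1 was at 6.59 CPM, above the next WT heart at 3.98 CPM (gap 0.638 of the range). *BGIG10090_46943* in WT TAC replicate 1 was at 1.02 CPM, below the next WT heart at 3.02 CPM (gap 0.661 of the range). *LOC100041599* in WT sham replicate 3 was at 0.409 CPM, above the next WT heart at 0 CPM (gap 1 of the range). The summed neutrophil markers in WT sham replicate 2 were at 39 CPM, above the next WT heart at 17.2 CPM (gap 0.648 of the range). The summed thymocyte markers in F3-KO TAC replicate 3 were at 0.557 CPM, above the next F3-KO heart at 0.173 CPM (gap 0.689 of the range).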

How the results depend on the processing

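The 55 calls (30 higher, 25 lower) became 211 (107 and 104) with DESeq2's Wald test, 30 (15 and 15) without the surgery term and 86 (42 and 44) at an adjusted p under 0.1. Leaving out 1 heart gave 30 (without F3-KO sham replicate 2) to 68 (without F3-KO TAC replicate 3) calls, 15 to 38 higher and 15 to 30 lower, of which 30 to 44 were among the 55. Calls fell by over 1.5 times also without WT sham replicate 1 (35) or 3 (32), F3-KO sham replicate 3 (34) or WT TAC replicate 3 (34). limma-trend gave 55, DESeq2's size factors 58, no filter 58, at least 10 counts in every library 40, the mean of 4 group effects 58 and a log2 change of at least 1 gave 40. Genes whose genotypes do not overlap numbered 90, 91 with DESeq2's size factors, 103 with library totals, 108 to 230 with 1 heart left out (176 without F3-KO sham replicate 1, 230 without WT TAC replicate 1, 153 without WT TAC replicate 2, 137 without F3-KO TAC replicate 3), and 202 without F3-KO TAC replicates 2 and 3. *Fabp3* stayed called in each fit, at -1.41 to -1.31 with 1 heart left out. For single genes 0 alternatives turned a direction, 1760 left the call as it was, 305 lost it and 18 gained it. DESeq2's size factors moved the median of all genes by -0.00105. With the replicate block 45 genes were called, 24 higher and 21 lower, 39 of them among the 55. Same-numbered hearts of different groups correlated at -0.165 to 0.334 (median 0.0519, 18 pairs) and others at -0.405 to 0.193 (median -0.0277, 36 pairs). Same-numbered WT and F3-KO hearts correlated at 0.233, 0.0706 and 0.334 within TAC and at -0.00448, 0.0258 and 0.109 within sham. The labels do not call the numbers pairs, and the main fit did not pair them. Genes near the floor of 3 counts per library are limited by depth.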

Other observations

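Lists of cell type markers were fitted in the same model, and in 13 of 17 lists at least 1 marker was tested. Of these 47 markers 0 were called by edgeR, DESeq2 or limma-trend, with 2 at an unadjusted p under 0.05 in edgeR, beside 10.1% of all genes. The markers of hepatocytes, B cells, white adipocytes and thymocytes were below the filter or not listed, so that they were not tested. The largest medians in size were those of the 2 tested atrial markers (1.39), with summed levels of 24 CPM in F3-KO sham replicate 2 and 26.9 CPM in F3-KO TAC replicate 2 and at most 6.51 CPM in the other 10 hearts, and of the 3 lung epithelium markers (-0.57), with 2 F3-KO TAC hearts near 0. Red blood cell markers had a median of -0.27 and summed to 299 to 4357 CPM in WT and 366 to 4493 CPM in F3-KO hearts.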
